A study of Saccharomyces cerevisiae with 2 samples.

Results

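The 10 genes THI2, THI3, THI4, THI6, THI7, THI20, THI21, THI22, THI72 and THI80, which make, regulate, activate or import thiamine, were examined among 6142 named genes in budding yeast treated with paraquat or left untreated. They were chosen by gene name, with the normalized values of both libraries already known, and all 10 were found in the deposited table. The study measured RNA by sequencing in 2 libraries of the haploid laboratory strain BY4741, grown in glucose-based rich medium to mid-log phase. The PQ library came from cells given 2.5 mM paraquat, a herbicide that passes electrons to oxygen and so forms superoxide, for 8 h. The WT library came from untreated cells of the same strain, and the labels give no matching time for it, so time in culture and paraquat cannot be told apart. With 1 library in each group, none of the differences below has a replicate check.

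Thiamine, vitamin B1, is built in yeast from a thiazole and a pyrimidine part that are made separately and then joined. The joined molecule, or thiamine taken up from the medium, is turned into thiamine diphosphate, the cofactor of pyruvate decarboxylase, transketolase and related enzymes. When thiamine is plentiful, as in media with yeast extract, yeast keeps most of the synthesis genes low. Thi4 forms the thiazole part, binds ferrous iron and gives up the sulfur of one of its own cysteines, so each protein molecule acts a single time.

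None of these 10 genes differed by as much as 2-fold after paraquat. At least 2-fold higher were 0 of 10, where 3.08% of the 5973 genes averaging 50 or more normalized reads were. At least 2-fold lower were 0 of 10, where 1.52% were. Of all 5973 genes 95.4% lay within 2-fold, so these counts do not set the 10 apart. The log2 differences, PQ over WT, ran from -0.27 for THI80 to 0.51 for THI7, with a median of 0.30 against -0.0029 over all 5973 genes. Of the 10 genes 8 lay above 0, as did 49.7% of all genes, or 9 of 10 and 78.6% when scaled to total reads on named genes, which moves every log2 value up by 0.26. At a lower threshold, 0 of 10 reached 1.5-fold higher, against 7.75% of all genes, and 0 of 10 reached 1.5-fold lower, against 5.88%. The range from THI80 to THI7 also held 4200 of the 5973 genes, or 70.3%. In the authors' deposited table the unadjusted p of the 10 genes ran from 0.226 for THI7 to 0.96 for THI3, and the adjusted p was 0.999 for each. An adjusted p under 0.05 was held by 0 of the 6142 named genes, so its value does not set the 10 apart. An unadjusted p under 0.05 was held by 0 of the 10 and by 2.12% of all genes there. That comparison set 1 library against 1.

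Values are normalized reads, the read count of a gene divided by a size factor for its library. Ranges in brackets are 95% counting intervals (exact, Clopper-Pearson) on the fold. They cover counting error alone, treat PCR copies as separate molecules, and leave out how cultures vary. Named genes held 165264107 reads in PQ and 164909400 in WT. The 10 genes held between 1096 and 14243 reads each in PQ and between 760 and 8734 in WT, together 0.036% of PQ reads and 0.0255% of WT reads. The strain's HIS3 allele keeps part of the gene, so its 12482 normalized reads in PQ and 17852 in WT do not test the strain label.

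THI4, the iron-dependent thiazole synthase, had 1001 normalized reads in PQ and 832 in WT, a 1.20-fold higher value in PQ (1.10 to 1.32). The PQ library was thus the higher, by less than any threshold used here. On the log2 scale its difference was 0.27, the 7th highest of the 10, and THI4 minus the median of the other 9 genes was -0.044. Set against their mean, THI4 lay 0.043 above. By log2 difference alone, THI4 thus lay in the midst of the other 9 genes, which include regulators, transporters and THI22. All genes were split into 10 near-equal classes of mean level. The 597 genes of the lowest class, which holds THI4, also had a median difference of 0.27. Relative to the median of their own class, 7 of the 10 genes lay above and 3 below. Those below were THI4 (-9.13e-05), THI20 (-0.199) and THI80 (-0.32).

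Genes that answer to iron scarcity and genes of other iron enzymes spanned a wider range in the same libraries. FIT1, ARN1, FET3 and TIS11, genes switched on when iron is scarce, had log2 differences of 3.96, 2.65, 1.61 and 3.04. These 4 do not stand for all genes of iron uptake, since FRE1 lay at 0.15 and FET4 at -0.40. Of 7 iron-sulfur enzymes of biosynthesis 6 lay below 0, with a median of -0.86. They ran from LEU1 at -1.91 and BIO2 at -1.52 to MET5 at -0.52 and ACO1, the single one above 0, at 1.29. Scaled to total reads, 1 of the 7 lay above 0, with a median of -0.60. LEU1 and ACO1 lay in the highest class of mean level, with 23.1% of its genes above 0. BIO2 and MET5 lay in lower classes, with 55.3% and 48.9% above 0. Of 13 iron enzymes that carry no iron-sulfur cluster, or their partner subunits, 0 differed by 2-fold and 10 lay below 0, with a median of -0.12, while scaled to total reads 8 lay above 0 with a median of 0.14. Their lowest were RNR2, the ribonucleotide reductase small subunit, at -0.64 and its partner RNR4 at -0.50, and their highest ADI1, a dioxygenase of methionine salvage, at 0.22 and the sulfonate dioxygenase gene JLP1 at 0.19. Of all genes 49.7% lay above 0, or 78.6% when scaled to total reads. Under the deposited scaling 3.08% were at least 2-fold higher and 1.52% lower. RNR4 lay in the highest class of mean level, of whose genes 23.1% were above 0, and RNR2 in the next lower, with 38.9%. ADI1 and JLP1 lay in lower classes, with 48.9% and 67.7% above 0. THI4, whose iron is also held without a cluster, lay above the highest of these 13 enzymes, by less than its own counting error (log2 interval 0.13 to 0.40). It lay in the lowest class, with 71.9% above 0, and the part of level in this distance was not tested.

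The regulators of the pathway differed by less than 1.5-fold, THI2 by more than THI3. THI2, an activator of thiamine synthesis genes, had 1046 normalized reads in PQ and 851 in WT, 1.23-fold higher in PQ (1.12 to 1.35). THI3, which binds Thi2 and Pdc2 and lets go of them when it binds thiamine diphosphate, had 9676 normalized reads in PQ and 9564 in WT, 1.01-fold higher in PQ (0.983 to 1.04). Its counting interval held 1, and its log2 difference of 0.017 was the closest to 0 of the 10. PDC2, the further activator of these genes, had 11512 normalized reads in PQ and 10455 in WT, a log2 difference of 0.14.

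The kinases of the pyrimidine branch lay on different sides of 0 under the deposited scaling. THI20, with hydroxymethylpyrimidine kinase, phosphate kinase and thiaminase activities, had 5001 normalized reads in PQ and 5569 in WT, 1.11-fold lower in PQ (1.07 to 1.16). THI21, redundant with it for the kinase steps, had 3035 normalized reads in PQ and 2277 in WT, 1.33-fold higher in PQ (1.26 to 1.41). THI22, a relative that thiamine synthesis does not require, had 3921 normalized reads in PQ and 3163 in WT, 1.24-fold higher in PQ (1.18 to 1.30). THI20 thus lay on the other side of 0 from both relatives, though at 0.10 on their side when scaled to total reads. The log2 difference of THI20 minus that of THI21 was -0.57, and minus that of THI22 -0.47, under either scaling. Of the normalized reads of the 3 genes together, THI20 took 41.8% in PQ and 50.6% in WT, and THI21 took 25.4% in PQ and 20.7% in WT. Per kb of coding length THI20 was the highest of the 3 in both libraries, at 1.65 times THI21 in PQ and 2.45 times in WT. In the RefSeq R64 sequences THI20 matched THI21 at 82.3% of bases and THI22 at 78.2%, below the 95% set for a near-identical copy.

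The remaining synthesis steps lay far apart in the order, THI6 2nd highest and THI80 lowest. THI6, which phosphorylates the thiazole precursor in salvage and joins both parts, had 13006 normalized reads in PQ and 9326 in WT, 1.39-fold higher in PQ (1.36 to 1.43). THI80, the pyrophosphokinase that makes thiamine diphosphate from thiamine, had 3941 normalized reads in PQ and 4758 in WT, 1.21-fold lower in PQ (1.16 to 1.26). The transcript of the joining step was thus higher in PQ and that of the activating step lower under the deposited scaling. Scaled to total reads, THI6 lay at 0.74 and THI80 at -0.013, so the lower value of THI80 rests on the scaling. THI80 had the lowest log2 difference of the 10, at -0.27, and lay at percentile 20.3 of all genes, while THI6, at 0.48, lay at percentile 89.4.

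Both uptake genes were higher in PQ. THI7, the main thiamine transporter of the plasma membrane, had 11204 normalized reads in PQ and 7868 in WT, 1.42-fold higher in PQ (1.38 to 1.47). THI72, a transporter of similar sequence, had 2476 normalized reads in PQ and 1868 in WT, 1.33-fold higher in PQ (1.25 to 1.41). THI7 had the highest log2 difference of the 10 and lay at percentile 90.6 of all genes. Per kb of coding length, THI7 stood at 4.53 times THI72 in PQ and 4.22 times in WT. NRT1, a nicotinamide riboside transporter that also takes thiamine weakly, had 9531 normalized reads in PQ and 8971 in WT, a log2 difference of 0.087. It matched THI7 at 84.2% of bases, and THI7 matched THI72 at 84.3%. The related permease genes FUR4 for uracil, DAL4 for allantoin and FUI1 for uridine had log2 differences of 0.70, 0.46 and 0.34. With NRT1, 4 of 4 relatives of the transporters lay above 0, where 49.7% of all genes did, or 78.6% when scaled to total reads. At least 2-fold higher were 0 of 4, against 3.08% of all genes.

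**Figure D1:**
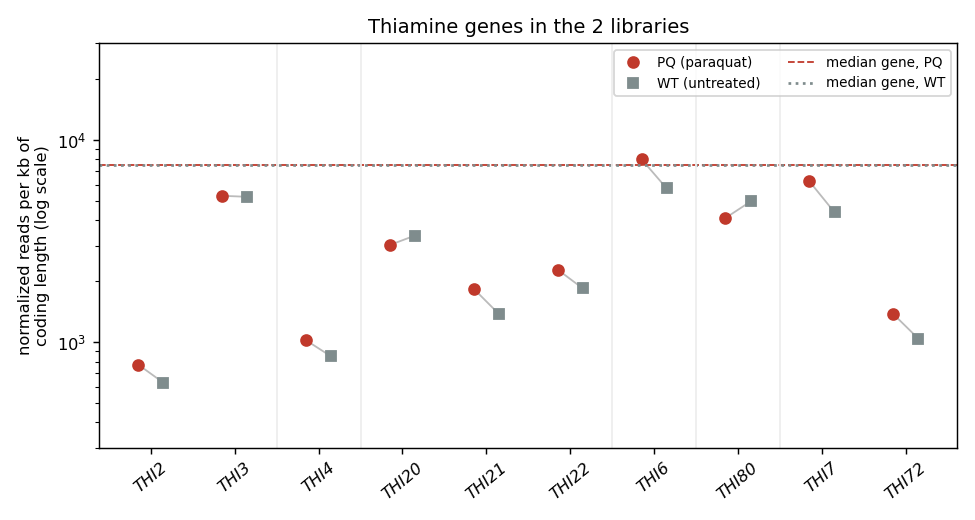
Level of each of the 10 thiamine genes in normalized reads per kb of coding length (log scale), ordered by role, with PQ as red circles left of WT as grey squares and 1 library per group. The dashed and dotted lines mark the median gene, which lay at 7529 in PQ and 7517 in WT; THI6 in PQ, at 8014, is the single point above them.

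Per kb of coding length, the thiamine genes were of middling to low level in both libraries. THI6 was the highest, at 8014 normalized reads per kb in PQ and 5746 in WT, where the median of 5862 genes with a coding length was 7529 in PQ and 7517 in WT. In PQ it was followed by THI7 (6235), THI3 (5287), THI80 (4105), THI20 (3020), THI22 (2281), THI21 (1833), THI72 (1375), THI4 (1020) and THI2 (773). In WT the order was THI6, THI3 (5226), THI80 (4956), THI7 (4379), THI20 (3363), THI22 (1840), THI21 (1375), THI72 (1038), THI4 (848) and THI2 (629), so THI7 was 2nd in PQ and 4th in WT. THI4 stood 7.38-fold below the median gene in PQ and 8.86-fold below it in WT, at percentiles 6.16 and 6.35. THI2 stood lower still, 9.73-fold below the median gene in PQ and 11.95-fold in WT.

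Genes of low level had higher log2 differences in these libraries, with a median of 0.27 in the lowest class of mean level, 0.13 in the second and -0.31 in the highest. THI2 and THI4 lay in the lowest class, of whose genes 71.9% were above 0, and THI21, THI22 and THI72 in the second, with 67.7% above 0. The difference of THI4 equalled its class's median to 2 decimals and that of THI2 was 0.032 above it. THI22 lay 0.18 above the median of its class, within that class's interquartile range of -0.075 to 0.36, and THI21 and THI72 lay 0.28 and 0.27 above it, outside that range.

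THI7 and THI6 stood furthest from genes of like level. They lay 0.51 and 0.49 above the medians of their classes, both near 0, and above the upper quartiles of 0.19 and 0.16. For THI80 and THI20 the gene minus the median of their class was -0.32 and -0.199, and both lay under its lower quartile of -0.14. Against their own classes 7 of the 10 genes were above the median and 3 below. Neighbours in the order of log2 differences from THI7 down to THI4 had overlapping counting intervals, whereas those of THI4 and THI3, THI3 and THI20, and THI20 and THI80 did not overlap.

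**Figure D2:**
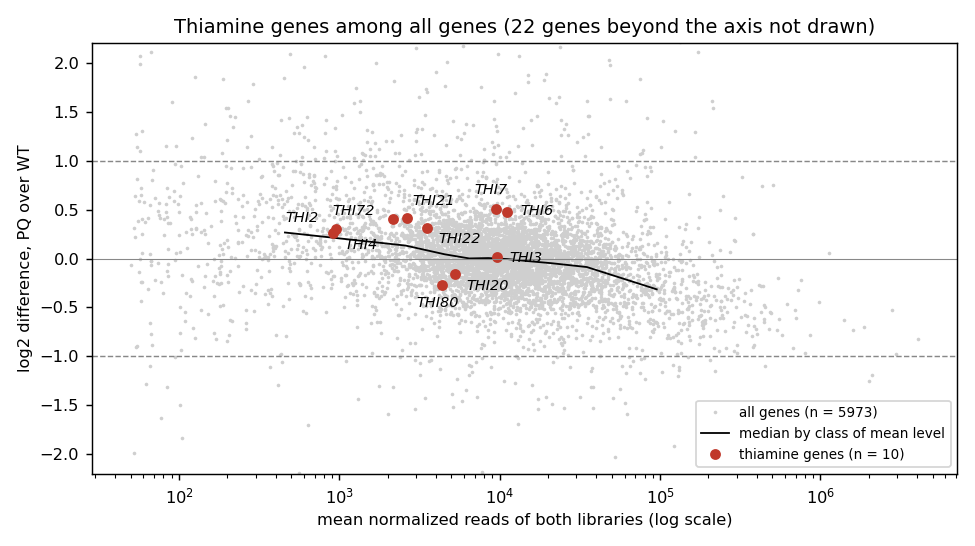
Log2 difference, PQ over WT, against the mean normalized reads of both libraries (log scale) for 5973 genes (grey; 22 beyond the axis are not drawn) and the 10 thiamine genes (red, 1 library per group), with the median of each class of mean level as a black line and 2-fold as dashed lines. THI7 and THI6 lie above the line, THI80 and THI20 below it, and THI4 and THI2 close to it.

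The deposited scaling sets where 0 lies. Scaled to total reads, THI20 turned from below to above 0, and THI80 lay at -0.013, in place of THI3 the closest to 0. On that scale 4 of the 10 were at least 1.5-fold higher, where 16.9% of all genes were, and 0 were 2-fold higher. The order of the 10 and their distances from one another do not depend on this scaling.

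The pyrimidine part itself is made by the subtelomeric THI5 family, which is near-identical in sequence, from 97.8% to 99.3% of bases in R64, so the split of reads among copies is uncertain. THI5 had 184 normalized reads in PQ and 89.8 in WT, THI12 had 367 in PQ and 166 in WT, THI11 had 1152 in PQ and 787 in WT, and THI13 had 396 in PQ and 375 in WT. Taken singly, THI12 and THI5 were 2.21-fold (1.83 to 2.68) and 2.05-fold (1.58 to 2.69) higher in PQ, and THI11 and THI13 1.46-fold and 1.06-fold. Summed over the copies, chosen after the values were seen, they had 2100 normalized reads in PQ and 1418 in WT, 1.48-fold higher in PQ (1.38 to 1.59). Taken singly, the 4 genes lay in the lowest class of mean level, which is not the class of their higher sum. The sum was below 2-fold. Whether reads that fit more than 1 copy were counted cannot be told from the values. The sum and the class rest on the reads as deposited.

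Genes of vitamin B6 supply, which feeds the THI5 reaction, differed by copy. SNZ1, a subunit of pyridoxal phosphate synthase, was 2.24-fold higher in PQ, at 6381 normalized reads in PQ and 2848 in WT, and its partner SNO1 was 1.68-fold higher, or just past 2-fold (log2 1.01) when scaled to total reads. SNZ2 and PDX3, the phosphate oxidase gene, had the lowest differences of the 7, at -0.15 and -0.33, SNZ2 turning to 0.11 when scaled to total reads. SNZ2 and SNZ3 matched at 99.3% of bases and SNO2 and SNO3 at 99.7%, so reads of each pair cannot be told apart with certainty. The median of the list was 0.22, with 4 of 7 above 0, where 49.7% of all genes were. SNZ1 alone was at least 2-fold higher, where 3.08% of all genes were. Scaled to total reads, the median was 0.48, with 6 of 7 above 0, against 78.6% of all genes. On that scale 2 were at least 2-fold higher, and the share of all genes was not counted.

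Other genes linked to thiamine had a median of 0.019 over 7 genes, 4 of them above 0, or 0.28 with 5 above 0 when scaled to total reads. Above 0 lay 49.7% of all genes, or 78.6% when scaled to total reads. Under either scaling 0 of the 7 passed 2-fold. Under the deposited scaling 3.08% of all genes were at least 2-fold higher and 1.52% lower. PET18 had the highest difference at 0.59, with 1362 normalized reads in PQ and 907 in WT, and THI74, a thiamine-repressed mitochondrial transporter, followed at 0.30. PHO3, the thiamine-repressed acid phosphatase that releases thiamine from its phosphates, had the lowest at -0.72, with 35823 normalized reads in PQ and 58875 in WT. PHO3 matches the acid phosphatase gene PHO5 at 86.6% of bases. PET18 lay in the lowest class of mean level, whose median was 0.27, and PHO3 in the next to highest, at -0.087. PDC5, a thiamine-repressed pyruvate decarboxylase, lay at -0.39, so thiamine-repressed genes were found on both sides of 0.

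Enzymes that use thiamine diphosphate lay on both sides, with 5 of 10 above 0, 1 gene at least 2-fold higher and 0 lower. Their median was -0.086, and 0.17 when scaled to total reads. PDC6, a minor pyruvate decarboxylase gene, was 2.53-fold higher in PQ (2.21 to 2.91), with 785 normalized reads in PQ and 310 in WT. ARO10, a decarboxylase of aromatic amino acid breakdown, lay at 0.84, and past 2-fold at 1.10 when scaled to total reads. The major pyruvate decarboxylase gene PDC1 lay lowest at -0.53 and the acetolactate synthase gene ILV2 next at -0.46. Genes of the highest class of mean level, to which both belong, had a median of -0.31. PDC6 lay in the lowest class, with a median of 0.27 and an upper quartile of 0.61. ARO10 lay in a middle class, with a median of 0.0048.

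**Figure D3:**
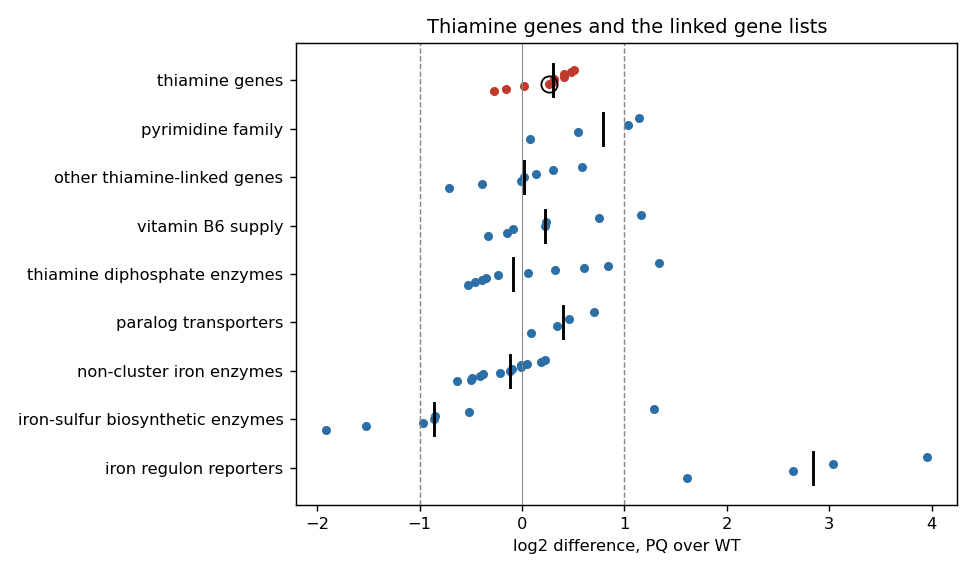
Log2 difference, PQ over WT, of each gene (points, 1 library per group) in the 10 thiamine genes (red, THI4 ringed) and 8 linked lists (blue), with each list's median as a black bar and 2-fold as dashed lines. The thiamine genes span -0.27 to 0.51 with THI4 in their midst, while iron regulon genes reach 3.96 and iron-sulfur enzymes -1.91.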

How the data were processed

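The authors deposited 1 table. It gives, per the file headers, a normalized signal for each gene in the PQ and WT columns, a log2 fold change and p-values. The tools named in the submitters' processing notes include STAR 2.5.2b, Trimmomatic 0.36, featureCounts, DESeq2 and Subread 1.5.2, without roles. Genome build, strandedness and RNA selection: not given in the sources used here. All values were whole multiples, within 0.01 read, of 1 step per library (0.913 in PQ, 1.10 in WT), and were read as that many reads per gene, with lowest values of 4 reads in PQ and 3 in WT. These steps are inferred from the values, and all counting intervals rest on them. The deposited log2 values matched log2 of PQ over WT within 8.38e-05. The 1 unnamed row (0.00675% of PQ and 0.00449% of WT reads) was left out.

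With 1 library per group no test was made. Counted were genes that averaged 50 or more normalized reads and differed by 2-fold. Members and lists were chosen with earlier results of these data known. Named were all 10 members, all genes of lists of 5 or fewer, and otherwise the 2 highest and 2 lowest of a list. PDC2 was named beside THI3, and FRE1 and FET4 beside the iron-scarcity genes, after their values were seen. RefSeq R64 served for names (5920 of 6142 rows matched), coding lengths, overlaps and copies, and no coordinates are given. Copies counted as near-identical had at least 95% identity over at least 80% of length (BLAST+ 2.17.0). Among the 10 members, 0 had one and 0 overlapped another annotated gene. Scripts ran in Python 3.11.15 (matplotlib 3.10.9, pandas 2.3.3, numpy 2.4.6, scipy 1.17.1), and calls and intervals were tested on simulated data. Those data held counting error alone, the same scaling in both groups and changes larger than those of the members. They check the code and not the spread between cultures. Alternatives were other scalings, pseudocounts of 1 and 10, no minimum mean, a 1.5-fold threshold and means in place of medians.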

Additional observations from a re-analysis of the deposited data

How the results depend on the processing

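No paired analysis was possible because each group has 1 library. In both directions, 0 members passed the fold threshold under each alternative run: both other scalings, pseudocounts of 1 and 10 and no minimum mean at 2-fold, and 1.5-fold with the deposited scaling. The median log2 difference of the 10 members moved from 0.30 to 0.56 when scaled to total reads on named genes, by that scaling's own shift of 0.26. It was 0.31 when centred on the median gene, 0.23 as a mean and 0.30 without THI22, an alternative chosen after seeing the data. THI4 minus the median of the other members was -0.044, and 0.043 against their mean, so its sign rests on that choice. Scaled to total reads, the log2 differences of 10 of 10 members left their counting intervals, and under centring and either pseudocount 0 did. Depth limits the members of lowest level most: THI4, with 760 reads in WT, had a log2 counting interval of 0.13 to 0.40 and THI2 one of 0.17 to 0.43. The interquartile range across genes was -0.22 to 0.22 over all and -0.058 to 0.61 in their class. That range is a spread of values and not a counting error. The spread between cultures is unknown.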
